A study of Rattus norvegicus with 6 samples.

Results

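A marker rule for smooth muscle cells and pericytes, the contractile cells that wrap arterioles, capillaries and ducts, chose 882 of 75981 kept barcodes in single-cell RNA libraries from the pancreas of 6 male Wistar rats. A barcode was kept with at least 200 detected genes and at most 25% of its unique molecular identifiers (UMIs, counted mRNA molecules) from mitochondrial genes. The rule for mural cells, the collective name for both types, used the UMI counts of 13 genes. Of the 882 chosen cells, 341 (38.7%) fell into sub-clusters named for either type by their markers, and the others are called chosen cells only. A barcode was taken when at least 3 of the 7 genes Acta2, Myh11, Tagln, Rgs5, Notch3, Cnn1 and Des had a UMI, with 0 UMIs of the pan-leukocyte gene Ptprc and of the fibroblast gene Pdgfra and fewer than 3 of the endothelial genes Cdh5, Kdr, Flt1 and Emcn detected. Levels of those genes are therefore a description and carry no test. The endothelial gene Pecam1, also part of the rule, was not used here.

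The young rats were 2 months old, had eaten a normal diet and were sampled at baseline. The old rats had eaten the normal diet, and the HFHF-old rats a high-fat, high-fructose diet, for 18 months, so that both groups were 20 months old. Each group had 2 rats and each library came from 1 rat, so p-values measure the spread between rats. Islets had been released with collagenase, enriched on a density gradient and dispersed to single cells, and the vessel cells in the libraries are those that came through these steps.

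Smooth muscle cells contract when calcium activates myosin light chain kinase, and they relax when nitric oxide raises cyclic GMP. Pericytes lie within the capillary basement membrane, depend on platelet-derived growth factor B acting on its receptor Pdgfrb, and carry ATP-sensitive potassium channels built from Kcnj8 and Abcc9. In the islet, pericytes set capillary diameter and so blood flow to the endocrine cells.

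The chosen cells were unevenly spread and of uneven make-up. Young replicates 1 and 2 held 204 and 267 of them, old replicates 1 and 2 held 16 and 374, and HFHF-old replicates 1 and 2 held 19 and 2. Old replicate 2 stood apart, since its chosen cells had a median of 854 UMIs against 4704 to 10276 in the other 5 libraries. The median mitochondrial share of the chosen cells ran from 1.5% in old replicate 2 to 11.14% in young replicate 1. Between 20 and 69 barcode sequences were shared by each pair of libraries. No barcode was chosen in more than 1 library, and 18 of the chosen barcodes also occurred, unchosen, in another. Hormone and digestive enzyme transcripts (38 listed genes of islet and acinar cells, called free RNA here, though RNA leaked from broken cells and RNA of the chosen cells were not told apart) took 26.8% of the UMIs of the chosen cells in young replicate 2 and 22.3% in old replicate 2, against 0.0761% to 1.04% in the other 4 libraries. In young replicate 2, 140 of the 267 chosen cells fell into the endocrine-like sub-cluster described below, and the free RNA share of the mural-like cells, the named smooth muscle and pericyte sub-clusters, was 1.22% there and 0.554% in old replicate 2.

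Clustering of the 882 cells gave 7 sub-clusters. Sub-cluster 1, 294 cells, was named smooth muscle-like, and sub-cluster 5, 47 cells, pericyte-like. Together these 341 cells are called mural-like below, and their median depth in the young and old rats was 3588 to 6118 UMIs. The other 541 cells fell into sub-clusters with other leading genes or from 1 library.

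**Figure D1:**
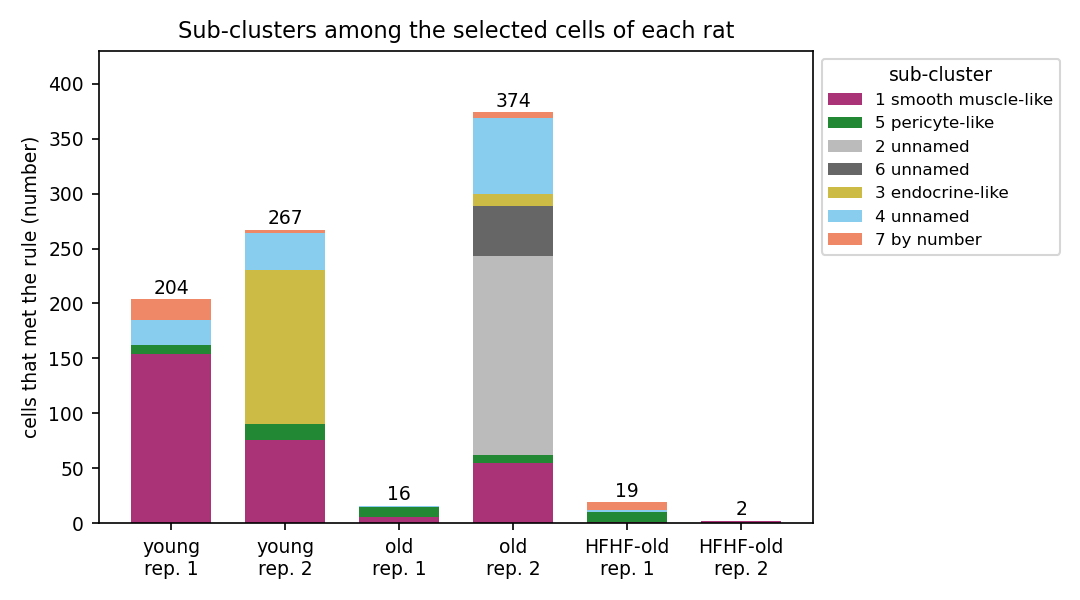
Number of chosen cells in each of the 7 sub-clusters (stacked bars, y axis in cells) for each of the 6 rats. Smooth muscle-like and pericyte-like cells numbered 154 and 8 in young replicate 1, 76 and 14 in young replicate 2, 6 and 9 in old replicate 1, 55 and 7 in old replicate 2, 1 and 9 in HFHF-old replicate 1 and 2 and 0 in HFHF-old replicate 2.

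Sub-clusters 2 (181 cells) and 6 (46 cells) came wholly from old replicate 2 and stayed unnamed, by a rule on sub-clusters of 1 library added after seeing the data. By its markers sub-cluster 2 would have been named smooth muscle-like, since 7 of the 12 smooth muscle markers were at least 1 log2 unit higher there than in the other chosen cells, against 9 in sub-cluster 1. Its cells held Tagln at 29695.2 CPM (counts per 1000000 UMIs of the cells summed), Acta2 at 14568.8 CPM and Cnn1 at 4021.0 CPM. Sub-cluster 2 had a median of 748 UMIs and 0.924% mitochondrial UMIs. It held the enteric and visceral smooth muscle actin Actg2 at 21462.9 CPM, against 382.1 CPM in the smooth muscle-like cells. It also held Prap1 at 5123.0 CPM, the cathepsin Ctsj at 1633.3 CPM and the calcium-binding protein gene S100g at 1371.0 CPM, which lay at 0 to 25.75 CPM in the other sub-clusters. Transcripts of the oestrogen receptor Esr1 (150.9 CPM), the progesterone receptor Pgr (45.92 CPM) and the oxytocin receptor Oxtr (13.12 CPM) were present as well. Pln, Npy1r and Gja4, genes also known from vascular smooth muscle, had 0 UMIs there. Sub-cluster 6 held Igf2 at 3243.9 CPM, the growth-arrest gene Cdkn1c at 5638.2 CPM, Col1a1 at 21059.7 CPM and Actg2 at 5277.8 CPM. Of the Y-linked genes, Eif2s3y and Kdm5d both had 0 of 152449 UMIs in sub-cluster 2, where 3 counts would be 19.68 CPM. In the smooth muscle-like cells of the same library they stood at 86.81 and 18.28 CPM, and the library was labelled male. The 18.28 CPM of Kdm5d lies below the 19.68 CPM of 3 counts, so its 0 says little. In sub-cluster 6, Eif2s3y had 3 of 38842 UMIs (77.24 CPM) and Kdm5d had 0.

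Among the other sub-clusters, number 3 (151 cells, 140 of them in young replicate 2) was led by the islet hormone genes, with Ppy at 87170.9 CPM, and met the naming rule as endocrine-like. There, 12 endocrine, 11 acinar and 9 leukocyte markers were at least 1 log2 unit higher than in the other chosen cells. Sub-cluster 4 (129 cells) held Ins2 at 109905.8 CPM beside the macrophage genes Mrc1 at 486.7 CPM, Cd163 at 312.9 CPM and Lyve1 at 257.2 CPM, and stayed unnamed. Sub-cluster 7 (34 cells) met the naming rule for mesothelial cells, which line the organ surface, but is called by its number here. The mesothelial genes Upk1b and Msln had a UMI in 17.65% of its cells, with 140 Upk1b UMIs in all. The chosen cells of HFHF-old replicate 1, of which 7 lay in this sub-cluster, held 139 Upk1b UMIs. The 19 cells of young replicate 1 had 0 UMIs of both. Values on both sides of the threshold are given as a description, and Myh11 is itself a rule gene. Barcodes with 2 of the 7 genes, just outside the rule, numbered 506 and held 98.68 CPM of Myh11 and 130020.0 CPM of Ins1. Barcodes with 3 of them, just inside, numbered 237 with 379.1 and 71314.7 CPM. Barcodes with 4 held 93695.7 CPM of Ins1, and the 10 barcodes with all 7 held 775.5 CPM.

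**Figure D2:**
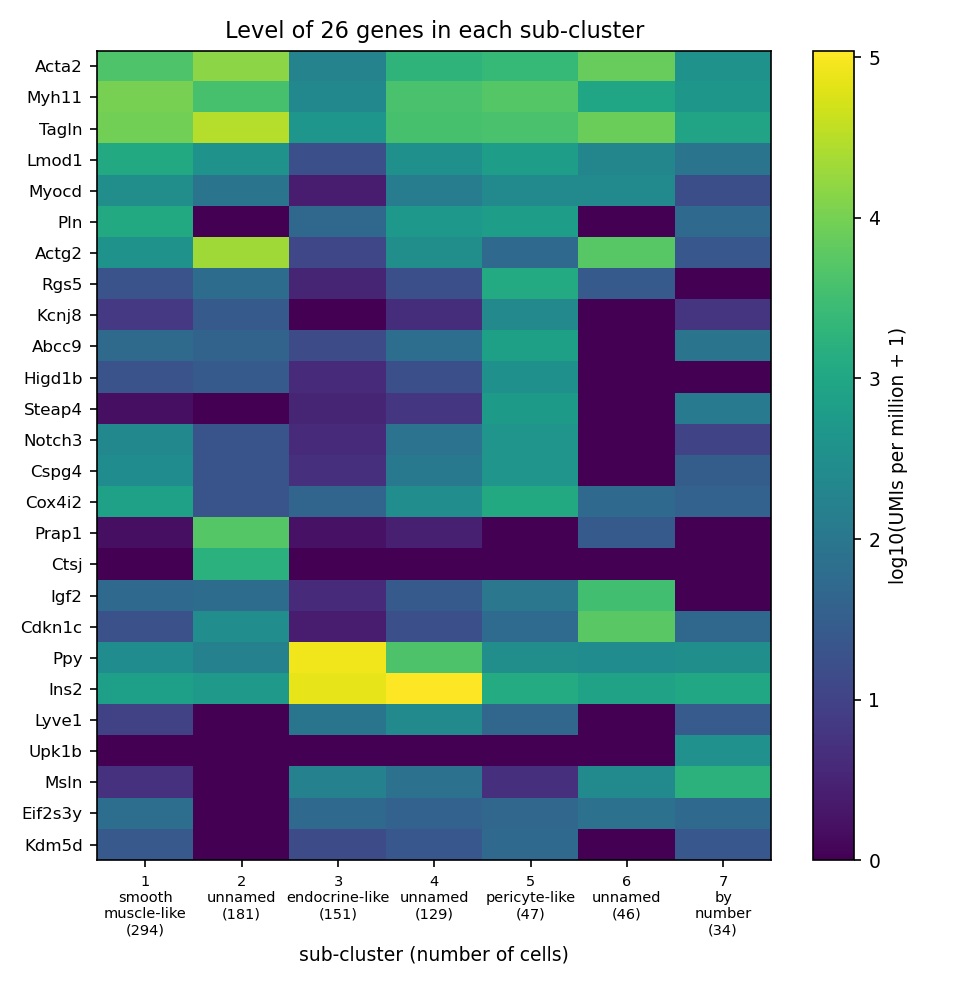
Level of 26 genes (y axis) in the 7 sub-clusters (x axis), shaded by log10(CPM + 1) over all cells of a sub-cluster. Myocd and Lmod1 were high in the smooth muscle-like and pericyte-like cells, Rgs5 and Kcnj8 in the pericyte-like cells, and Actg2, Prap1 and Ctsj in sub-cluster 2.

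The smooth muscle-like and pericyte-like cells parted along known lines, which is a description since the clustering used these genes. Rgs5, a brake on G protein signalling, stood at 1205.4 CPM in pericyte-like and 18.9 CPM in smooth muscle-like cells. The channel genes Kcnj8 (229.8 against 5.905 CPM) and Abcc9 (745.8 against 54.33 CPM), Steap4 (564.4 against 0.5905 CPM), Higd1b (338.6 against 18.31 CPM) and vitronectin, Vtn (645.0 against 76.77 CPM), lay on the same side. So did the angiotensin receptor Agtr1a (262.0 against 8.858 CPM) and the endothelin receptor Ednrb (560.4 against 41.34 CPM). Smooth muscle-like cells held more of the small GTPase gene Rergl (614.8 against 141.1 CPM), of the smooth muscle myosin Myh11 (9998.0 against 5208.6 CPM) and of the potassium channel subunit Kcnab1 (1114.4 against 705.5 CPM). The endothelin receptor Ednra was close between them, at 459.4 CPM in smooth muscle-like and 528.1 CPM in pericyte-like cells. In sub-cluster 1, 6 of the 12 pericyte markers were also at least 1 log2 unit higher than in the other chosen cells. Of the 341 mural-like cells, 51 held both Rgs5 and Myh11, 286 Myh11 without Rgs5 and 4 Rgs5 without Myh11. The rule leans on Acta2, Myh11, Tagln, Cnn1 and Des, so pericytes low in these may have been missed.

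In all 4 young and old rats the mural-like cells held the genes of the contractile machinery far above the other kept cells of the same library. For Myl9, the regulatory light chain of smooth muscle myosin, they held 3050.0 and 5134.3 CPM in the young and 2176.4 and 5040.8 CPM in the old rats, while other cells held 18.64, 45.5, 4.559 and 12.62 CPM. With 1 CPM added to both levels the mean log2 ratio was 7.80, with a range over rats of 6.79 to 8.61. Among genes outside the rule at 50 CPM or more in the mural-like cells of each of the 4 rats, the 20 with the largest such ratios ran from Myl9 to the small proteoglycan fibromodulin, Fmod, at 6.73. They included the tropomyosin Tpm2 (7.14), leiomodin Lmod1 (7.14), phospholamban Pln (7.33), which restrains the calcium pump of the sarcoplasmic reticulum, calsequestrin Casq2 (6.94) and the laminin receptor Itga7 (7.25). Myocardin, Myocd, the coactivator that switches on smooth muscle genes, had a ratio of 7.45, at 346.4, 241.1, 348.2 and 316.1 CPM in the 4 rats.

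Receptors for constricting signals stood in the same list. Npy1r, the neuropeptide Y receptor through which sympathetic nerves act, had 600, 441.5, 435.3 and 501.5 CPM in the mural-like cells, and 3.96, 2.757, 0.1169 and 0.893 CPM in the other cells. On the same scale its mean log2 ratio was 7.62, and that of Ednra 6.93. The added 1 CPM lowers the ratio most for genes near 0 in the other cells, such as Npy1r, and the order within the list is given on that scale. The hypoxia-linked respiratory subunits Cox4i2 (7.74) and Ndufa4l2 (7.31) and the pericyte proteoglycan NG2, encoded by Cspg4 (6.88), were in it too. No test accompanies these ratios. Lmod1, Myocd, Pln, Cox4i2, Ndufa4l2 and Cspg4 were among the markers that named the sub-clusters, and the listed genes were picked for their ratios. The ratios therefore describe the chosen cells and are no independent check of their type.

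**Figure D3:**
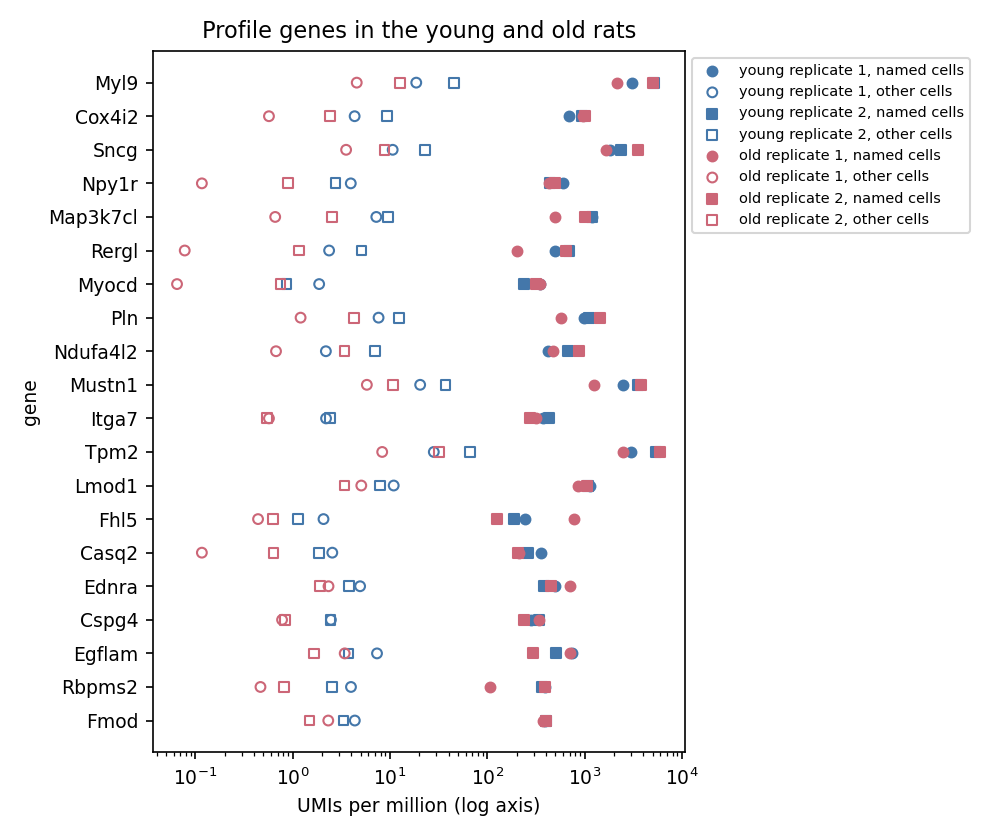
Level of the 20 profile genes (CPM, log axis) in mural-like cells (filled points) and all other kept cells (open points) of the 2 young and 2 old rats. For each gene the 4 filled points lie to the right of the 4 open points, with mean log2 ratios, 1 CPM added to both levels, from 6.73 for Fmod to 7.80 for Myl9. The genes were picked for these ratios.

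Markers of other cell types were lower than smooth muscle markers in the mural-like cells of the young and old rats. Summed leukocyte markers reached 226.9 to 309.5 CPM, endothelial markers 396.5 to 455.2 CPM and mesothelial markers at most 25.29 CPM, against 21057.4 to 34404.4 CPM for the 12 smooth muscle markers. Fibroblast markers reached 695.4 to 1518.6 CPM, and they include Col14a1. Acinar markers reached 1643.7 to 5049.2 CPM and endocrine markers 1451.4 to 4981.8 CPM. Ptprc and Pdgfra were at 0 by the rule, which also limited Cdh5, Kdr, Flt1 and Emcn. The smooth muscle markers include the rule genes Acta2, Myh11, Tagln, Cnn1 and Des, and they named sub-cluster 1. The contrast was therefore set in part by the choice of cells. Free RNA took 0.417% and 1.22% of the UMIs of mural-like cells in young replicates 1 and 2, and 0.821% and 0.554% in old replicates 1 and 2.

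Contractile genes are known targets of serum response factor, which binds the CArG box and recruits myocardin. In the windows from 250 bases before to 50 bases after the RefSeq start on GRCr8, 22 of the 30 contractile genes listed had a sequence, and the exact CArG box, searched on both strands, lay in 1 of them (4.55%) against 548 of 33469 windows in all (1.64%). That gene was Ldb3, which anchors filaments at dense bodies and Z-lines. Its window is shown because it alone matched. Allowing 1 of the inner letters to be G or C, a search added after the exact one, gave 2 of the 22 (9.09%) and 3154 windows in all (9.42%). Acta2, smooth muscle actin and 1 of the rule genes, then had 2 matches. Capitals mark the matches, and coordinates are chr16:9924630-9924929 for Ldb3 and chr1:241172454-241172753 for Acta2, both on the minus strand.
Ldb3: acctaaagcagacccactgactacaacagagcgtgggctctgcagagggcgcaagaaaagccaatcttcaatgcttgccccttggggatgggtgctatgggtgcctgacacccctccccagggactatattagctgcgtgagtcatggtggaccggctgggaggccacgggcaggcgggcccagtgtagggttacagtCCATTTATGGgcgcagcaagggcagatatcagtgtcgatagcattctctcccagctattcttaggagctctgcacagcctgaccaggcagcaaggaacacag
Acta2: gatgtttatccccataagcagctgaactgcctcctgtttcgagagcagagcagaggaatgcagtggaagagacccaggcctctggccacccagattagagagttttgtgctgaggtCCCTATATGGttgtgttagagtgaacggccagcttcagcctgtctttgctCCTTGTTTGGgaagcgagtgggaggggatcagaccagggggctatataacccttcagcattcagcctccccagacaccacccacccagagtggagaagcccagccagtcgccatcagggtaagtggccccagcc
The match began at base -52 from the start of Ldb3, and the matches of Acta2 began at -134 and -84. These letters describe the windows and show no binding. Ldb3 stood at 293.2 and 239.3 CPM in mural-like cells of the young rats and at 87.1 and 193.9 CPM in the old rats, against 2.25 to 7.38 CPM in the other cells. Acta2 stood at 3950.5, 4575.8, 3607.9 and 4484.4 CPM, with the old rats inside or just below the young range.

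The chosen cells as a whole formed 1.165% and 2.585% of kept barcodes in the young, 0.2139% and 2.278% in the old, and 0.1519% and 0.01704% in the HFHF-old rats. The ranges overlapped, with an old minus young difference in means of -0.6296 percentage points (1.246 ± 1.459% against 1.875 ± 1.004%, SD, n = 2 each, two-sided exact permutation test p = 0.667). The sign turned without old replicate 1 (0.4022 points) and without young replicate 2 (0.0803 points). With barcodes under 1500 UMIs left out and the rest thinned to 1500 UMIs, the difference was -1.108 points. In old replicate 2, 99 of 10783 barcodes then met the rule, against 374 of 16421 before. Young replicate 1 went from 204 of 17504 to 227 of 15303, and young replicate 2 from 267 of 10328 to 159 of 8628. Sub-clusters 2 and 6 of old replicate 2 had median depths of 748 and 723 UMIs, below the cut. Thinning can also remove the UMIs by which the rule leaves a barcode out, so the setting is not a plain match of depth. Without sub-clusters of 1 library, a setting added after seeing the data, the difference was -1.321 points. In both of these both old rats lay below both young rats (exact permutation p = 0.33). The second setting took 227 cells from old replicate 2 and none from the other rats, so it could only lower the old mean. Sub-cluster 3, with 92.72% of its cells from young replicate 2, stayed in. Mural-like cells alone, a restriction chosen after seeing the data, formed 0.9255% and 0.8714% of kept barcodes in the young rats and 0.2006% and 0.3776% in the old rats. Both old rats lay below both young rats, with a difference in means of -0.6094 points (0.2891 ± 0.1252% against 0.8985 ± 0.03824%, exact permutation p = 0.33, the smallest p that 2 rats against 2 can give). That separation rested on leaving sub-cluster 2 out. With its cells counted in, old replicate 2 held 1.48%, above both young rats, and the difference was -0.05827 points (exact permutation p = 1).

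Smooth muscle-like cells formed 0.8798% of kept barcodes in young replicate 1 (exact 95% interval 0.7468% to 1.029%) and 0.7359% in young replicate 2 (0.5802% to 0.9202%). In the old rats they formed 0.08022% (0.02945% to 0.1745%) and 0.3349% (0.2524% to 0.4357%), below both young rats. With sub-cluster 2 counted in, old replicate 2 held 1.437% (1.261% to 1.631%), above both. Pericyte-like cells overlapped, at 0.0457% and 0.1356% in the young and 0.1203% and 0.04263% in the old rats. Intervals cover counting error only. Sub-cluster sizes were not tested, and the yield of the islet preparation cannot be told apart from the number of cells in the tissue.

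HFHF-old rats had the fewest mural-like cells, 10 and 2, or 0.07993% and 0.01704% of kept barcodes, below both old rats (difference in means -0.2406 points, exact permutation p = 0.33, the smallest possible). In HFHF-old replicate 1, 9 of the 10 were pericyte-like. In HFHF-old replicate 2 both were smooth muscle-like, and 0 of 11738 kept barcodes were pericyte-like, which allows a share of up to 0.0256% by 3 counts and 0.03142% by the exact 95% interval.

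**Figure D4:**
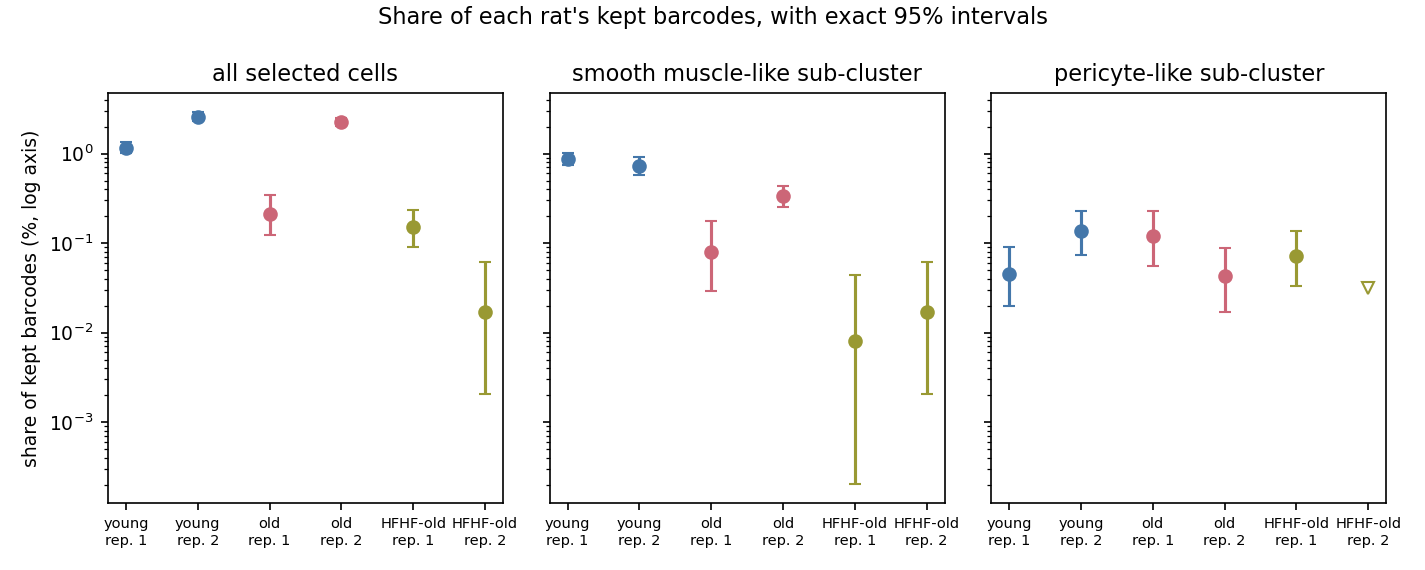
Share of kept barcodes (%, log axis) in each rat for all chosen cells, smooth muscle-like cells and pericyte-like cells, with exact 95% intervals as bars. The open triangle marks the upper limit where no cell was found. Smooth muscle-like cells lie at 0.8798% and 0.7359% in the young rats, 0.08022% and 0.3349% in the old rats and 0.007993% and 0.01704% in the HFHF-old rats.

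Old and young rats were first compared over all chosen cells, with UMIs summed per rat and edgeR's quasi-likelihood test. A gene was called when its adjusted p was below 0.05 and its change was over 1.5-fold. Of 8275 genes 0 were called (0%), 233 reached 0.05 before adjustment, and the lowest adjusted p was 0.327. DESeq2 called 5. Both old rats lay above both young rats for 10.9% of genes and below them for 13.8%, 24.7% in all. Such counts, here and below, use TMM-normalized CPM, while printed levels are raw CPM. With library size alone they were 635 and 1060 of 8275 genes, against 905 and 1141. A fit without 1 rat leaves 1 rat in a group and takes its spread from the other rats. Leaving out 1 rat gave 45 calls without young replicate 1, 53 without young replicate 2, 90 without old replicate 1 and 28 without old replicate 2, so the count of 0 rests on the full set. The smallest p was that of AC127784.2, at 0 CPM in both young and 47.84 and 61.55 CPM in the old rats (log2 fold change 8.80, edgeR adjusted p = 0.327). All other kept cells held 0.1477 and 0.09062 CPM of it in the young and 25.51 and 18.75 CPM in the old rats. This difference was therefore not particular to the chosen cells. Periostin, Postn, a matrix protein of activated stromal cells, was also among the genes with the smallest p. It stood at 16.33 and 19.5 CPM in the young and 401.8 and 530.1 CPM in the old rats (log2 fold change 4.64, SE 0.88, edgeR adjusted p = 1). The scavenger receptors Mrc1 and Cd163, macrophage genes, were on the other side, with Mrc1 at 236.3 and 217.6 CPM in the young and 28.7 and 37.68 CPM in the old rats (-2.69, SE 0.72). Among listed genes, the median of the 29 tested free RNA genes was -2.79 on the log2 scale, beside -0.01 over all genes. Of these 29, 1 lay lower and 0 higher in both old rats, and their summed levels of 10380.3 and 223398.5 CPM in the old rats lay within the 4890.8 and 267462.2 CPM of the young. Sub-clusters 2, 3, 4, 6 and 7 enter these sums, and 2 and 6 came from old replicate 2 alone.

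Restricted to the 341 mural-like cells, edgeR again called 0 of 5746 genes (0%). An unadjusted p under 0.05 was given to 248, and the lowest adjusted p was 0.378. DESeq2 called 13, of which 12 were higher in old rats. The old rats lay above both young rats for 13.7% of genes and below for 16.5%, 30.2% in all. Without 1 rat the count was 16 (young replicate 1), 0 (young replicate 2), 62 (old replicate 1) or 274 (old replicate 2). In old replicate 1, 9 of the 15 mural-like cells were pericyte-like, against 8 of 162, 14 of 90 and 7 of 62 in the other libraries, so that its sums weight pericyte genes more. Rgs5, a rule gene, stood at 49.04 and 289 CPM in the young and 860.9 and 75.86 CPM in the old rats.

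The contractile list gave no call in the mural-like cells. Over all genes tested there, 13.7% lay higher and 16.5% lower in both old rats, the share beside which the list counts stand. Of 25 genes tested 0 were called, 3 lay higher and 4 lower in both old rats, and the median log2 fold change was -0.10. The light chain Myl6 stood at 4049.6 and 7501.1 CPM in the young and 2776.1 and 7624.4 CPM in the old rats (-0.10). The tropomyosin Tpm1 stood at 4118.5, 4563.4, 2650.3 and 3970.2 CPM (-0.37), and both old rats lay below both young rats. For Tpm2 and Myl9 the ranges overlapped.

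Channels, receptors and their signalling partners gave no call either. Beside their counts, 13.7% of all genes tested were higher and 16.5% lower in both old rats. Of the 24 tested channel and vasoactive receptor genes, 8 were higher and 5 lower in both old rats (median 0.19). Pln stood at 979, 1118.7, 571 and 1433.0 CPM, and the calcium pump Atp2a2 at 1136.3, 1079.7, 677 and 990 CPM. The inositol trisphosphate receptor Itpr1, a calcium release channel, had 556 and 401 CPM in the young and 929 and 552 CPM in the old rats, which overlap. In the nitric oxide and cyclic GMP list 2 of 7 genes were higher and 0 lower (0.51), with the phosphodiesterase Pde3a at 1820.8, 936, 2273.1 and 995 CPM. In the Notch list, the pathway through which endothelium instructs mural cells, 1 of 11 was higher and 2 lower (0.09). Its target Hes1 stood at 479 and 443 CPM in the young and 387 and 223 CPM in the old rats (-0.62), while the coactivator Maml2 stood at 235, 86.9, 1006.0 and 261 CPM (1.90, adjusted p = 1).

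Growth factor and matrix genes gave no call, and the shares over all genes were again 13.7% higher and 16.5% lower. In the PDGF and TGF-beta list, 6 of 20 were higher and 4 lower (0.40). Connective tissue growth factor, Ctgf, a target of TGF-beta and stretch signalling, stood at 95 and 371 CPM in the young rats. In the old rats it stood at 1189.7 and 662 CPM (log2 fold change 2.01, edgeR adjusted p = 0.968). Its UMIs in old replicate 1 lay in 3 smooth muscle-like cells (57 UMIs) and 3 pericyte-like cells (66 UMIs). Pdgfrb was at 303, 307, 648 and 185 CPM. Of the 15 pericyte genes tested 4 were higher and 0 lower (0.35). Of 17 basement membrane genes 0 were higher and 4 lower (0.02), with Col4a1 at 601, 727, 1721.7 and 451 CPM. In the fibrillar and elastic matrix list 3 of 22 were higher and 7 lower (-0.07). The type I collagen gene Col1a1 stood at 277.6 and 274.8 CPM in the young and 38.69 and 88.51 CPM in the old rats (-1.98, SE 0.53, adjusted p = 0.642), and the matrix Gla protein Mgp at 3336.9, 4799.2, 3182.3 and 4872.2 CPM.

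The growth arrest and senescence list had 4 of 18 genes higher and 4 lower (0.30), beside 13.7% and 16.5% of all genes. Igfbp5, which binds insulin-like growth factors, stood at 7586.9 and 8440.7 CPM in the young and 3192.0 and 4143.0 CPM in the old rats (-1.11, adjusted p = 1). Gadd45g, a stress-induced growth arrest gene, stood at 311 and 360 CPM in the young and 696 and 1007.3 CPM in the old rats (1.37, adjusted p = 1). Of the 2 proliferation genes tested, Stmn1 had 40.7 and 31.9 CPM in the young and 0 in both old rats, at least 4.25-fold lower by a floor of 3 counts over the old rats, and Pcna was at 44.3 to 54.8 CPM in all 4.

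Stress, immune and metabolic lists followed. Oxidative stress genes were higher for 7 of 32 and lower for 1 (0.11), inflammatory mediators for 2 and 3 of 12 (0.12), and interferon and MHC class I genes for 4 and 0 of 10 (0.46). B2m, the light chain of MHC class I, stood at 878 and 1024.7 CPM in the young and 1392.9 and 1340.3 CPM in the old rats (0.54, adjusted p = 1). MHC class II genes were higher for 1 of 3 (0.20), insulin and lipid handling genes for 5 and lower for 1 of 22 (0.46), and respiratory chain subunits for 0 and 0 of 26 (-0.24). Immediate early genes, which tissue dissociation also induces, were higher for 3 and lower for 0 of 21 (0.46). Free RNA genes were lower for 2 of 25 (-0.54). No haemoglobin gene passed the filter on low counts. Over all 5746 genes the median was -0.01, with 13.7% higher and 16.5% lower in both old rats.

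The genes with the smallest p in the mural-like cells did not pass. The lowest were Col14a1 (log2 fold change -5.46), LOC108348108 (3.32) and Inmt (7.80), each with edgeR adjusted p = 0.378 and taken up below. Some with larger p follow. Tcf15, a basic helix-loop-helix transcription factor, stood at 207.6 and 411.3 CPM in the young and 67.71 and 12.64 CPM in the old rats, and at most at 11.09 CPM in other cells (-3.18, SE 0.72, edgeR adjusted p = 0.549). The calcium channel Cacna1d stood at 85.56, 44.32, 0 and 8.429 CPM (-3.44) and the DNA repair gene Mgmt at 14.61, 7.092, 125.7 and 59.01 CPM (2.87). Dach1 stood at 6.261, 7.092, 87.05 and 46.36 CPM (3.18), while other cells held 57.96 to 88.73 CPM. Its 9 and 11 UMIs in the old rats lay in 2 pericyte-like cells each, and the old smooth muscle-like cells had 0.

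Smooth muscle-like cells were then compared on their own, a restriction added after seeing the data, with 154 and 76 cells in the young and 6 and 55 in the old rats. edgeR called 2 of 5151 genes (0.0388%), with 330 at an unadjusted p under 0.05, 1 higher and 1 lower in old rats. DESeq2 called 2, both higher, and Col14a1 was not among them. Col14a1, a collagen that decorates fibrils and is otherwise known from fibroblasts, had 128 of 905467 and 76 of 486595 UMIs in the young rats, or 141.4 and 156.2 CPM. In the old rats it had 0 of 51924 and 0 of 218862 UMIs, which puts it at least 13.2-fold lower by a floor of 3 counts over both (edgeR adjusted p = 0.0278). Other cells of the old rats held 129.3 and 44.75 CPM of Col14a1, and of the young rats 315.8 and 45.67 CPM. The HFHF-old smooth muscle-like cells, 3 in all, also had 0 UMIs.

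**Figure D5:**
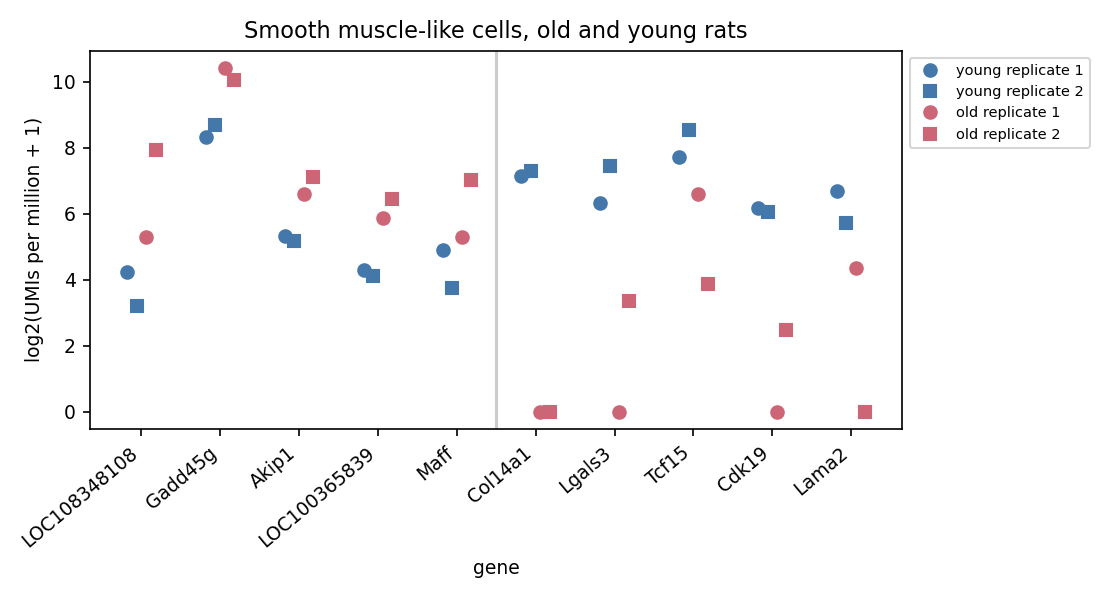
Level of 10 genes as log2(CPM + 1) in the smooth muscle-like cells of the 4 young and old rats (circles replicate 1, squares replicate 2), with genes higher in old rats and genes lower in old rats parted by a grey line. Col14a1 lies at 141.4 and 156.2 CPM in the young rats and at 0 in both old rats, and Gadd45g at 322.5 and 415.1 against 1367.4 and 1050.9 CPM.

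The second called gene, LOC108348108, had 17.67 and 8.22 CPM in the young and 38.52 and 242.2 CPM in the old rats (log2 fold change 3.74, SE 0.59, edgeR adjusted p = 0.0336). Its level in old replicate 1 was 2 UMIs in 1 cell. Other cells held 96.97 and 14.73 CPM of it in the young and 113 and 91.42 CPM in the old rats. Neither call was stable. Over 10 alternatives the adjusted p of Col14a1 ran from 6.46e-07 to 1, and that of LOC108348108 from 4.86e-09 to 1. Col14a1 lost the call without young replicate 1 (adjusted p = 1), without old replicate 2 (0.161), with DESeq2 (0.109) and with DESeq2's size factors (0.104), and LOC108348108 without young replicate 1 (1), without old replicate 2 (0.86) and with DESeq2's size factors (0.165). Both also lost it with the replicate number as a block (edgeR adjusted p = 0.164 and 0.749). The count was 0 without young replicate 1, 7 without young replicate 2, 52 without old replicate 1 and 4 without old replicate 2. The direction of both genes was the same in all 10. Without 1 rat the log2 fold change of LOC108348108 ran from 1.40 to 4.41, and that of Col14a1 from -9.29 to -8.27.

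Other genes of the smooth muscle-like cells did not pass. Gadd45g was at 322.5 and 415.1 CPM in the young and 1367.4 and 1050.9 CPM in the old rats (1.79, SE 0.38, edgeR adjusted p = 0.313). Galectin 3, Lgals3, had 79.52 and 174.7 CPM in the young and 0 and 9.138 CPM in the old rats (-3.91), and the laminin chain Lama2 102.7, 51.38, 19.26 and 0 CPM (-4.19). Tcf15 was again lower in both old rats, at 207.6, 369.9, 96.29 and 13.71 CPM (-2.99). After TMM normalization both old rats lay above both young rats for 16.3% of genes and below for 19.8%. With library size alone the counts were 646 and 1246 of 5151 genes, against 842 and 1019.

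Within these cells the contractile list had 7 genes higher and 4 lower of 25 in both old rats (median 0.15). Immediate early genes were higher for 8 of 21 and lower for 0 (0.55), with Dusp1, a phosphatase that ends MAP kinase signalling, at 2097.3, 1231.0, 2253.3 and 4194.4 CPM. Oxidative stress genes were higher for 10 of 32 and lower for 0 (0.37), with the ferritin chain Fth1 at 1409.2, 2046.9, 2272.6 and 2668.3 CPM. Basement membrane genes were higher for 2 of 17 and lower for 8 (-0.52), with the integrin Itgb1 at 1085.6, 1177.6, 636 and 882 CPM. Free RNA genes were higher for 0 and lower for 7 of 25 (-0.93), and the median over all genes was -0.02. Of all genes 16.3% were higher and 19.8% lower in both old rats. None of the genes in these lists was called.

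Pericyte-like cells were few, at 8 and 14 in the young and 9 and 7 in the old rats, with 18404 to 77455 UMIs per rat. edgeR called 0 of 1015 genes (0%), 199 had an unadjusted p under 0.05, and the lowest adjusted p was 0.0627. Both old rats lay above the young for 24.5% of genes and below for 27.3%. The lowest p was that of Inmt, a methyltransferase gene, with 0 UMIs in the young and 233.2 and 326.0 CPM in the old rats. The old rats summed held 258 CPM, at least 11.2-fold higher by a floor of 3 counts over the young rats. The 12 and 6 Inmt UMIs of the old rats lay in 2 cells and 1 cell. Tgfb2, a ligand of the TGF-beta receptors, stood at 0, 77.46, 913.3 and 380.4 CPM (3.77, SE 0.94, edgeR adjusted p = 0.166). Its 47 and 7 UMIs in the old rats lay in 7 and 2 cells. The mineralocorticoid receptor Nr3c2 stood at 113.4 and 103.3 CPM in the young and 757.9 and 760.7 CPM in the old rats (2.66, adjusted p = 0.166). Its 39 and 14 UMIs in the old rats lay in 8 and 3 cells. On the lower side, LOC103694169 stood at 642.8 and 710.1 CPM in the young rats (34 and 55 UMIs). In the old rats it stood at 38.87 and 54.34 CPM (2 and 1 UMIs, -3.99, SE 0.86, edgeR adjusted p = 0.138). Tcf15 stood at 208.0, 671.4, 38.87 and 0 CPM (-4.00, SE 1.03, adjusted p = 0.166).

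The gene lists of the pericyte-like cells gave no call. Beside their counts, 24.5% of all genes tested were higher and 27.3% lower in both old rats. Of 20 respiratory chain subunits tested, 17 were lower in both old rats and 0 higher (median -1.70, beside -0.04 over all genes), none passing the test. Cox8a, a subunit of cytochrome c oxidase, stood at 662 and 1523.5 CPM in the young and 194 and 543 CPM in the old rats (-1.82, edgeR adjusted p = 0.209). Contractile genes were lower for 11 of 21 and higher for 0 (-0.59), with Tpm2 at 2193.0, 3176.0, 253 and 1141.1 CPM. Channels and vasoactive receptors were higher for 8 of 16 and lower for 2 (0.72), with Abcc9 at 681, 297, 1807.2 and 869 CPM and Ednra at 359, 310, 816 and 1195.4 CPM. Oxidative stress genes were lower for 6 of 10 and higher for 0 (-0.73), with Fth1 at 1947.2, 2491.8, 777 and 761 CPM (-1.66, edgeR adjusted p = 0.202). Immediate early genes were higher for 2 and lower for 4 of 15 (-0.45). Both medians had the opposite sign in the smooth muscle-like cells, and the difference between the sub-clusters was not tested. Free RNA genes were higher for 5 of 14 and lower for 0 (0.54) in the pericyte-like cells. In the smooth muscle-like cells the median of 27 respiratory chain subunits was 0.08. Whether depth or make-up moves with these medians was not tested.

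HFHF-old rats could be compared with old rats only through HFHF-old replicate 1, since replicate 2 had 2 chosen cells. Over all chosen cells edgeR called 0 of 10116 genes (0%), 837 reached 0.05 before adjustment, the lowest adjusted p was 0.116 and DESeq2 called 49. The count was 237 without young replicate 1, 246 without young replicate 2, 137 without old replicate 1 and 0 without old replicate 2. Without the top 1% of barcodes by gene number, the 19 cells of that rat fell to 14 and their UMIs from 385533 to 91528, 330 genes reached 0.05 before adjustment and the lowest adjusted p was 0.743. Among the genes with the smallest p was Upk1b at 360.5 CPM in HFHF-old replicate 1 and 0 CPM in both old rats (edgeR adjusted p = 0.116). In that rat 7 of the 19 chosen cells belonged to sub-cluster 7.

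In the mural-like cells of that rat 2 of 5806 genes were called (0.0344%). AC142181.2 stood at 1290.0 CPM and LOC683849 at 718.5 CPM, both with 0 UMIs in the 2 old and 2 young rats and in HFHF-old replicate 2 (log2 fold changes 11.75 and 10.91, edgeR adjusted p = 0.00241 for both). Against a floor of 3 counts over the old rats they were at least 146-fold and 81.6-fold higher. The other cells of HFHF-old replicate 1 held 682.3 and 404.7 CPM of them, those of old replicate 1 35.25 and 29.91 CPM and those of HFHF-old replicate 2 76.13 and 55.35 CPM. Over 6 alternatives the adjusted p of AC142181.2 ran from 1.42e-17 to 0.999, and both calls were lost without young replicate 1 (0.999) and without young replicate 2 (0.356). Without old replicate 1 the count was 63, and without old replicate 2 it was 14. Ctgf had 0 UMIs in the mural-like cells of HFHF-old replicate 1 and 117.0 CPM in HFHF-old replicate 2, against 1189.7 and 661.7 CPM in the old rats (edgeR adjusted p = 0.249). By a floor of 3 counts, HFHF-old replicate 1 lay at least 16.8-fold below the 822 CPM of the 2 old rats summed. The lone rat is assumed to vary like the others, and 9 of its 10 cells were pericyte-like. In pericyte-like cells alone, Ctgf had 0 of 47838 UMIs in HFHF-old replicate 1. In those cells it had 66 of 51460 and 2 of 18404 in old replicates 1 and 2, and 5 of 52896 and 7 of 77455 in the young rats. The bound above therefore also sets unlike mixtures of cells side by side.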

How the data were processed

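Single-cell RNA libraries (10x 3' chemistry) of 6 rats were analysed. The authors deposited, per library, raw UMI counts per gene and barcode that are not normalized. Per the file headers Cell Ranger 5.0.0 wrote the matrices, and the submitters' processing notes give the genome build Rnor_6.0. Whether doublets were removed before deposit is not given in the sources used here, and none were called here. Counting of overlapping genes was as deposited.

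The 32883 genes of 78024 barcodes were filtered as the report states, leaving 7479 to 17504 barcodes and 17090 to 1948294 UMIs of chosen cells per rat. The members and gene lists were chosen with earlier results of these data known. The chosen cells were scaled to 10000 UMIs, log-transformed and clustered with scanpy 1.11.5 (1000 variable genes without mitochondrial, ribosomal, free RNA and haemoglobin genes, 10 principal components, 15 neighbours, Leiden resolution 0.5). A sub-cluster was named from listed markers, at least 3 of them. After seeing the data, sub-clusters with over 95% of cells from 1 library, or where leukocytes tied with another class for the most markers among the 10 leading genes, were left unnamed.

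UMIs were summed per rat and tested with edgeR 4.0.16 (TMM, filterByExpr, quasi-likelihood, Benjamini-Hochberg) in R 4.3.3, with DESeq2 1.42.0 as an alternative. Rats needed 10 cells, or 5 within a single sub-cluster. The 13 rule genes used stayed in library sizes and left the table. Old against young used those 4 rats, and HFHF-old against old used all rats with enough cells. The fit was also run on simulated sums with known changes, and those results are not given here. Levels are CPM of raw sums, while counts of genes higher or lower in both old rats used TMM-normalized CPM. Shares were compared by exact permutation. The text names the called genes, or some of those with the smallest p, taken from up to 5 per direction. These had at least 20 CPM, and their rats did not overlap. It also names up to 4 genes per list by mean CPM. Other genes were chosen after their values were seen. The lists were contractile apparatus, pericyte genes, channels and vasoactive receptors, nitric oxide and cyclic GMP, Notch, PDGF and TGF-beta, basement membrane, fibrillar matrix, oxidative stress, inflammatory mediators, interferon and MHC class I, MHC class II, growth arrest, proliferation, insulin and lipid handling, respiratory chain, immediate early, free RNA and haemoglobin. Replicate numbers do not tie rats together in the labels. Promoter windows came from RefSeq (GRCr8), matched by symbol.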

Additional observations from a re-analysis of the deposited data

Results flagged for a closer look

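Sub-clusters 2 and 6 drew attention because they hold cells that pass the mural rule in 1 rat and in none of the young rats. Sub-cluster 2 had 181 cells and sub-cluster 6 had 46, and both lay wholly in old replicate 2, where they made up 227 of 374 chosen cells. Their median depths were 748 and 723 UMIs, and 3588 UMIs in the mural-like cells of that library. The 0 of 152449 UMIs of Eif2s3y and Kdm5d in sub-cluster 2 stand beside a label that says male. Kdm5d was low in the smooth muscle-like cells of that library too, so its 0 says little. Sub-cluster 6 did hold UMIs of Eif2s3y. The source of these cells was not tested.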

How the results depend on the processing

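With 2 rats per group and few cells the counts of called genes depended on the settings, and the cause was not tested. Every fit without 1 rat had a group of 1 rat, so its spread came from the other rats in the fit. Added after seeing the data were the fits on single sub-clusters at 5 cells a rat, the alternatives within mural-like and smooth muscle-like cells, the settings without sub-clusters of 1 library, and the shares of mural-like cells and with sub-cluster 2 counted in. For old against young over all chosen cells (0 calls) library size alone gave 2, DESeq2 5, no filter on low counts 210, cells thinned to 2500 UMIs 6, the smooth muscle-like sub-cluster 2, and cells with 0 UMIs of other types' defining markers, which left 1 old rat, 474. Leaving out 1 rat gave 28 to 90. For HFHF-old against old (0 calls) library size alone gave 173, DESeq2 49, no filter 322 and mural-like cells 2, and leaving out 1 rat 0 to 246. In mural-like cells old against young (0) became 13 with DESeq2 and 0 to 274 without 1 rat, and HFHF-old against old (2) became 5 with DESeq2 and 0 to 63 without 1 rat. In smooth muscle-like cells old against young (2) became 0 with DESeq2 size factors, 14 with no filter and 0 to 52 without 1 rat. The old minus young difference in the share of chosen cells ran from -1.661 to 0.4022 points without 1 rat (0.4022 without old replicate 1 and 0.0803 without young replicate 2), and HFHF-old minus old from -2.193 to -0.1295 points. Same-numbered rats of the young and old groups deviated together across genes (correlation 0.49 over all chosen cells and 0.22 over mural-like cells), but 2 pairs and unlinked labels do not establish a pairing. With the replicate number as a block the paired fits gave 115 calls (old against young) and 735 (HFHF-old against old) over all chosen cells, 58 and 14 in mural-like cells, and 0 in smooth muscle-like cells, where Col14a1 then had an adjusted p of 0.164 and LOC108348108 of 0.749 in edgeR. Over 50 named results 355 of 522 alternative values kept their side of the threshold, 154 became called, 13 lost the call and 0 changed direction. Not run for lack of cells were the HFHF-old comparison without replicate 1 of that group, with 4 rule genes or with 0 UMIs of other markers, and the sub-clusters at 10 cells a rat.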
